A study of Mus musculus with 6 samples.

Results

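The 9 sarcomeric myosin heavy chain genes Myh1, Myh2, Myh3, Myh4, Myh6, Myh7, Myh7b, Myh8 and Myh13 were followed in muscle labelled quadriceps of mice with and without the estrogen receptor alpha gene in muscle. They were chosen by gene symbol from a table of counts per Ensembl gene, and are 9 of its 37477 IDs. All 9 passed the filter on low counts and are among the 13848 genes tested. MERKO mice, called KO here, had a muscle-specific knockout of estrogen receptor alpha (gene Esr1), and their controls were wild type (WT). Both groups were C57BL/6 mice aged 20 weeks, with 3 libraries each. The sources used here do not give the promoter that drove the deletion, nor whether a library came from 1 animal or from a pool. The p-values below measure the spread between these libraries, which may be technical.

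Myosin heavy chain is the motor of the thick filament: its head splits ATP and pulls on actin, and its rod packs into the filament. Each gene of the family encodes a motor of its own speed, so the chain a fibre makes sets how fast it contracts and is the usual basis for naming fibre types. In adult mouse limb muscle Myh7 marks slow type I fibres, Myh2 type IIA, Myh1 type IIX and Myh4 the fastest type IIB. Myh3 (embryonic) and Myh8 (perinatal or neonatal) are made in developing and regenerating fibres, Myh6 is the alpha chain of the heart, Myh13 belongs to extraocular and laryngeal muscle, and Myh7b is an ancient slow-type gene whose intron carries a microRNA.

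Library totals lay between 7388365 and 8560244 counts. The check of the deleted gene went with the labels: Esr1 had 22, 16 and 16 counts in KO replicates 1, 2 and 3, against 50, 41 and 44 in WT replicates 1, 2 and 3, a log2 difference of -1.45 (unadjusted p = 1.04e-05, adjusted p = 0.145, edgeR). Across the whole table no gene passed an adjusted p of 0.05 (0% of the 13848 tested, edgeR's quasi-likelihood test with Benjamini-Hochberg adjustment), while 590 genes (4.26%) had an unadjusted p under 0.05. DESeq2 called 3 genes and limma voom 1. No myosin heavy chain was called by edgeR or limma voom with the filter on low counts, nor by DESeq2, which was run without that filter. None is described below as having changed. Myh1 was called by edgeR when that filter was dropped, as given with its values. All log2 differences are KO minus WT.

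The 9 genes together took 3.84% ± 0.257 of all counts in KO and 3.85% ± 0.237 in WT libraries (SD, n = 3 each). Of the 9 genes, 4 had a higher and 5 a lower estimate in KO; their median log2 difference was -0.013, beside -0.0024 over all genes tested. In 1 of the 9 (Myh1) every KO library lay above every WT library, which held for 4.96% of all genes tested. In 1 of the 9 (Myh2) every KO library lay below every WT library, against 5.45% of all genes tested. With 9 genes, these counts are too small to set the family apart from the rest of the table.

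**Figure D1:**
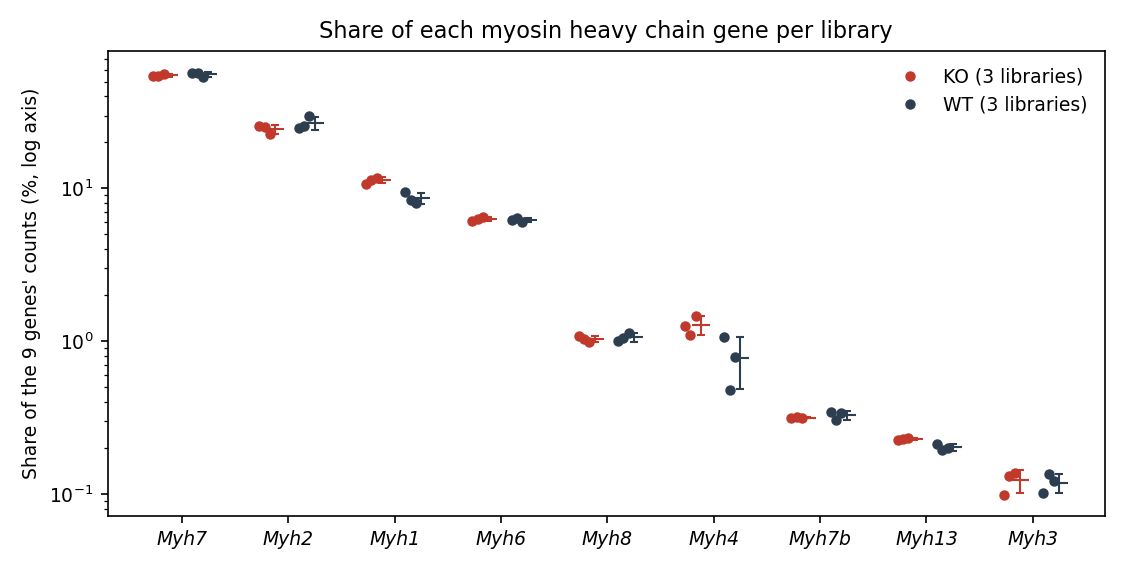
Share of the counts of all 9 myosin heavy chain genes (y axis, percent, log scale) held by each gene (x axis), with KO left of WT; points are libraries, and the cross beside them is the mean ± SD of 3 libraries. The KO points lie above the WT points for Myh1, Myh4 and Myh13, and the groups overlap for the other 6 genes.

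Ordered by level, the slow chain came first. Counts scaled to the library total (CPM) and divided by exonic length, which allows levels of different genes to be compared, gave Myh7 2439 CPM per kb in KO and 2524 in WT. Myh2 followed with 1312 in KO and 1454 in WT, then Myh1 with 681 in KO and 529 in WT, and Myh6 with 358 in KO and 362 in WT. Below these 4 came Myh4 (81.6 CPM per kb in KO, 50.5 in WT), Myh8 (33.7 in KO, 34.9 in WT), Myh7b (18.3 in KO, 19.2 in WT), Myh13 (14.2 in KO, 12.7 in WT) and Myh3 (7.77 in KO, 7.62 in WT). The lengths from the annotation include retained introns of some transcripts, and 1 pair of neighbours depends on this. Per kb of the longest coding transcript, Myh4 stood at 81.6 ± 14.8 and Myh8 at 64.5 ± 1.60 in KO, while in WT Myh4 stood at 50.5 ± 20.9 and Myh8 at 66.7 ± 1.90 (SD, n = 3 each), so that the order of these neighbours turned in WT and there lay within the spread of Myh4.

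This order goes against the label. In mice the quadriceps is known as a mostly fast muscle in which Myh4 is the leading chain and Myh7 is scarce, while slow muscles such as the soleus are rich in Myh7 and Myh2. In these libraries Myh7 held 54.9% ± 0.915 of the family's counts in KO and 55.8% ± 2.13 in WT, and Myh4 held 1.28% ± 0.182 in KO and 0.778% ± 0.291 in WT (SD, n = 3 each). The summed level of 5 slow-fibre markers (Myh7 and its partners Myl2, Myl3, Tnnt1 and Tnni1) was 33130 to 36490 CPM in KO and 31020 to 36990 CPM in WT. That of 4 type IIB markers (Myh4, Actn3, Pvalb and Mybpc2) was 744 to 952 CPM in KO and 328 to 661 CPM in WT. The troponins did not share this lean to the slow side, and are given per kb of exonic length, as the chains were above. Slow Tnnt1 had 1805 ± 122.5 CPM per kb in KO and 1823 ± 59.9 in WT. Fast Tnnt3 was close to it and slightly higher, with 1877 ± 123.2 in KO and 1877 ± 30.1 in WT (SD, n = 3 each). Before division by length the order was the other way, with Tnnt1 at 3979 CPM in KO and 4019 in WT and Tnnt3 at 2971 and 2972. Fast Tnni2 (1164 CPM per kb in KO, 1106 in WT) stood above slow Tnni1 (409 in KO, 364 in WT). Slow Tnnc1 had 0, 0 and 1 counts in KO and 0 in each WT library, beside 2134 CPM per kb in KO and 1971 in WT for fast Tnnc2. No source used here names the annotation or the read counter, so these counts do not show that Tnnc1 RNA was absent. Why they were near 0, beside the high levels of the slow-fibre markers above, was not tested. All 6 libraries shared the high share of Myh7 and the low share of Myh4. The tissue is therefore called muscle labelled quadriceps throughout.

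Myh7, which encodes the slow beta chain, lies on chromosome 14, minus strand (mm10, chr14:54970684-54994626). It had 20430, 20240 and 22380 CPM in KO replicates 1, 2 and 3, against 23480, 23040 and 18710 CPM in WT replicates 1, 2 and 3. WT replicate 3 was the lowest of all 6 and the other WT libraries the highest, so the groups overlapped with the KO libraries in the middle. The log2 difference was -0.049 ± 0.09 (SE), with a 95% interval of -0.25 to 0.15 (unadjusted p = 0.607, adjusted p = 0.993, edgeR quasi-likelihood). This does not show that the levels were alike.

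Myh2, the type IIA chain, lies on chromosome 11, plus strand (chr11:67171027-67197517). Its level was 9694, 9360 and 9037 CPM in KO libraries, against 10350, 10300 and 10490 CPM in WT libraries. Every KO library lay below every WT library, and the WT libraries were close together. Means were 9364 ± 329 CPM in KO and 10380 ± 102 CPM in WT (SD, n = 3 each), a log2 difference of -0.15 ± 0.08 (SE; 95% interval -0.31 to 0.01), and did not pass (unadjusted p = 0.0649, adjusted p = 0.989, edgeR). As a share of the family, Myh2 held 25.8, 25.15 and 22.6% in KO and 24.96, 25.65 and 29.9% in WT libraries, which overlapped (exact two-sided permutation p = 0.5). Thus the lack of overlap in CPM was not found in the share, where WT replicate 3, the library with the lowest level of Myh7, stood highest.

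Myh1, the type IIX chain, lies next to Myh2 (chr11:67200052-67224575, plus strand). It had 34123, 35052 and 38066 counts in KO replicates 1, 2 and 3, against 29242, 24492 and 22268 counts in WT replicates 1, 2 and 3. As CPM these were 4038, 4235 and 4713 in KO and 3917, 3349 and 2823 in WT. Every KO library lay above every WT library, although KO replicate 1 and WT replicate 1 were near each other. The mean was 4329 ± 347 CPM in KO and 3363 ± 547 CPM in WT (SD, n = 3 each), or 28.7% higher in KO. Its log2 difference of 0.36 ± 0.11 (SE; 95% interval 0.13 to 0.60) had an unadjusted p of 0.00499, the only one of the 9 under 0.05 (4.26% of all genes had one), and an adjusted p of 0.989 by edgeR's quasi-likelihood test. With no filter on low counts beyond 1 read, which left 23953 genes and called 19 of them (0.0793%), Myh1 was called with a log2 difference of 0.37 and an adjusted p of 0.00132. The adjusted p was 0.598 or more under the other alternatives run. The authors' deposited table gave Myh1 a log2 difference of 0.38, a p-value of 0.00184 and an adjusted p-value of 1. In bulk RNA, a different number of fibres of a type and a different amount of RNA per fibre cannot be told apart. This holds for Myh1 and for all genes that follow.

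Myh4, the type IIB chain, follows on the same strand (chr11:67238029-67260446). It had 474, 411 and 587 CPM in KO libraries, from 4002, 3405 and 4744 counts, against 441, 194 and 276 CPM in WT libraries, from 3293, 1417 and 2174 counts. WT replicate 1 lay above KO replicate 2, so the groups overlapped, and WT replicate 2 was the lowest of all. The mean was 491 ± 89.2 CPM in KO and 304 ± 126 CPM in WT (SD, n = 3 each), 1.62 times as high in KO. The log2 difference was 0.69 ± 0.36 (SE), the largest of the 9, but its interval of -0.29 to 1.68 was also the widest (unadjusted p = 0.125, adjusted p = 0.989, edgeR). Without WT replicate 1 it was 1.06, and without WT replicate 2 it was 0.45. The authors' deposited table gave Myh4 a log2 difference of 0.70 with a p-value of 0.00158 and an adjusted p-value of 1.

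**Figure D2:**
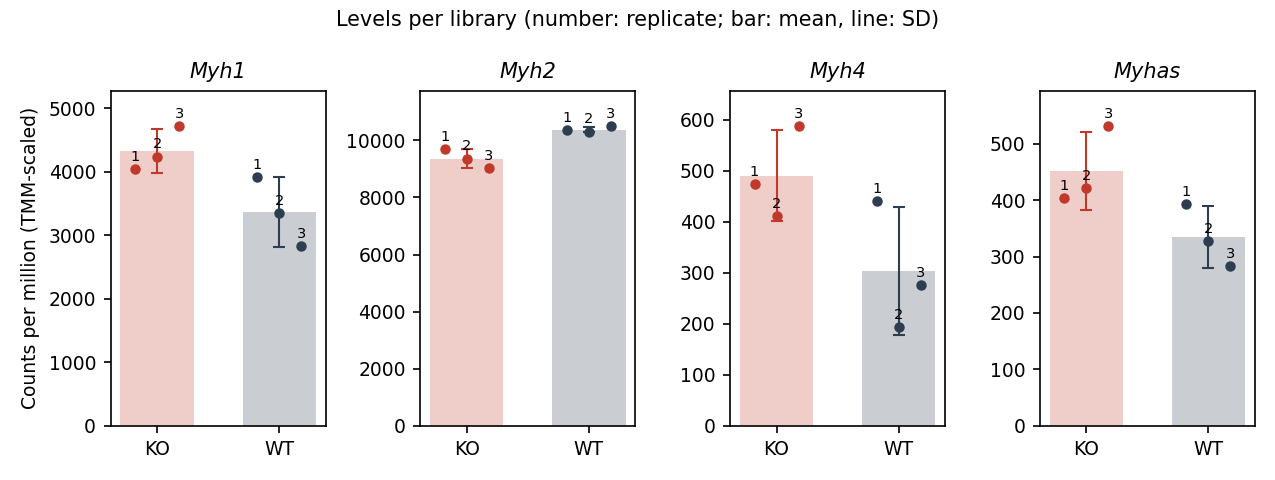
Level of Myh1, Myh2, Myh4 and the antisense gene Myhas (y axis, CPM, starting at 0 on a scale of its own in each panel) in KO and WT libraries; points are libraries with their replicate number, and bars with lines are the mean ± SD of 3 libraries. All KO points lie above the WT points for Myh1 and Myhas and below them for Myh2, while for Myh4 WT replicate 1 lies above KO replicate 2.

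The promoters of the 3 fast adult genes and of perinatal Myh8 are shown because these genes sit side by side and Myh1 and Myh2 differed in the direction of their estimates. The letters are those of RefSeq (GRCm38.p6), given 5′ to 3′. Each window ends 1 base before the earlier of the RefSeq and GENCODE starts of its gene, which is the GENCODE start for Myh1, whose window is therefore 200 bases long, and the RefSeq start for Myh4. They lie at chr11:67199852-67200051 for Myh1, chr11:67170777-67171026 for Myh2, chr11:67237562-67237811 for Myh4 and chr11:67276874-67277123 for Myh8, all on the plus strand. Capitals mark a block shared by Myh1, Myh2 and Myh4, and in Myh8 its core.
Myh1: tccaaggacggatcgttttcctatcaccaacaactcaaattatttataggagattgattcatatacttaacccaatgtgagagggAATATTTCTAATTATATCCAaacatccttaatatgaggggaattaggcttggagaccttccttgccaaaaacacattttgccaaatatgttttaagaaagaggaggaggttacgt
Myh2: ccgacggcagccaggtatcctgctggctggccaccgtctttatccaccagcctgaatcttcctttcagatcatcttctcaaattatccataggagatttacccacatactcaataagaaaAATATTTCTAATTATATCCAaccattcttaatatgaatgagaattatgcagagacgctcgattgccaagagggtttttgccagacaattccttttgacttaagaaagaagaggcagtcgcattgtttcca
Myh4: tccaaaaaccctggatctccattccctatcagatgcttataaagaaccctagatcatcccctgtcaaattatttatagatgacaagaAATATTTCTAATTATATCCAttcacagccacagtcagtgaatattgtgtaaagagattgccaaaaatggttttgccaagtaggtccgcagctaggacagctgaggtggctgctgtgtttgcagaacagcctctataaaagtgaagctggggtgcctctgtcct
Myh8: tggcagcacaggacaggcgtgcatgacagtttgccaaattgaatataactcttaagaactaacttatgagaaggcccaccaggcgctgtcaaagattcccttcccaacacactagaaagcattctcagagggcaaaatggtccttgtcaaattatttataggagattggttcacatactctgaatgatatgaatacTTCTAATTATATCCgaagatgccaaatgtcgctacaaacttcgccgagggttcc

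The shared block of 20 bases, AATATTTCTAATTATATCCA, began 115 bases before the end of the window in Myh1, 130 in Myh2 and 163 in Myh4. Searched on both strands, it was in 3 of 32851 RefSeq windows of 250 bases (0.00913%), and these 3 were the windows of Myh1, Myh2 and Myh4. Its core of 14 bases, TTCTAATTATATCC, lies inside the block and was in 4 windows (0.0122%), the added one being Myh8, at 54 bases before the end. The block was found by comparing these promoters, so that its rarity is a description of them. On the strand of the gene, TATAAA was found in Myh4, starting 213 and 31 bases before the end. Its reverse complement, TTTATA, was found once each in Myh1, Myh4 and Myh8, starting 158, 179 and 96 bases before the end, and the window of Myh2 held neither. On both strands, 12.4% of all RefSeq windows held these letters. The core was found in genes with estimates above 0 (Myh1 and Myh4) and below 0 (Myh2 and Myh8). The intervals of Myh2 (-0.31 to 0.01), Myh4 (-0.29 to 1.68) and Myh8 (-0.20 to 0.10) included 0, so that their signs are not settled. Whether the core bears on the differences between KO and WT was not tested.

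The window of Myh7 (chr14:54994627-54994876, minus strand, RefSeq GRCm38.p6) is shown for contrast, as the gene with the highest level in the family. On either strand it held neither TATAAA nor, as the search of all windows showed, the block or its core.
Myh7: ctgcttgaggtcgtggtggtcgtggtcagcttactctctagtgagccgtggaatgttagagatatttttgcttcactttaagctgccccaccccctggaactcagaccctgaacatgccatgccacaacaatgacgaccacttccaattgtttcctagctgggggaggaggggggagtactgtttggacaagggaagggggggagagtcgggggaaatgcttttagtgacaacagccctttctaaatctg

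The estimates of Myh1, Myh2 and Myh4 differed in sign. The proportions of these genes were therefore compared within each library, where no scaling between libraries enters. Myh1 held 10.8, 11.4 and 11.8% of the family in KO and 9.45, 8.34 and 8.05% in WT libraries. All KO shares were higher, with means of 11.3% ± 0.522 in KO and 8.61% ± 0.735 in WT (SD, n = 3 each). Myh4 held 1.26, 1.11 and 1.47% in KO and 1.06, 0.483 and 0.786% in WT libraries, again with all KO shares above all WT shares. Each gave an exact two-sided permutation p of 0.1. With 3 libraries a group no smaller value can occur, so that no share could pass 0.05. Among the 9 shares compared, Myh13 also gave 0.1 and the other 6 gave 0.4 to 0.8. The widest 95% Wilson interval reached 0.112 percentage points to either side of a Myh1 share and 0.0415 to either side of a Myh4 share, which covers counting error only.

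The log2 ratio of Myh1 plus Myh4 to Myh2 plus Myh7 was -2.74, -2.67 and -2.57 in KO and -2.96, -3.23 and -3.24 in WT libraries. All KO libraries were higher, by 0.48 in the mean (exact two-sided permutation p = 0.1). This grouping of chains was chosen with earlier results known, and another grouping gave another picture: Myh1, Myh2 and Myh4 over Myh7, the fast chains over the slow one, differed by 0.058 (exact two-sided permutation p = 0.6). The groupings differ in which sum holds Myh2. The log2 ratio of Myh1 to Myh2 was -1.26, -1.14 and -0.94 in KO and -1.40, -1.62 and -1.89 in WT libraries, with no overlap and a difference of 0.52 (exact two-sided permutation p = 0.1), while Myh2 over Myh7 differed by -0.11 with overlap (exact two-sided permutation p = 0.6).

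**Figure D3:**
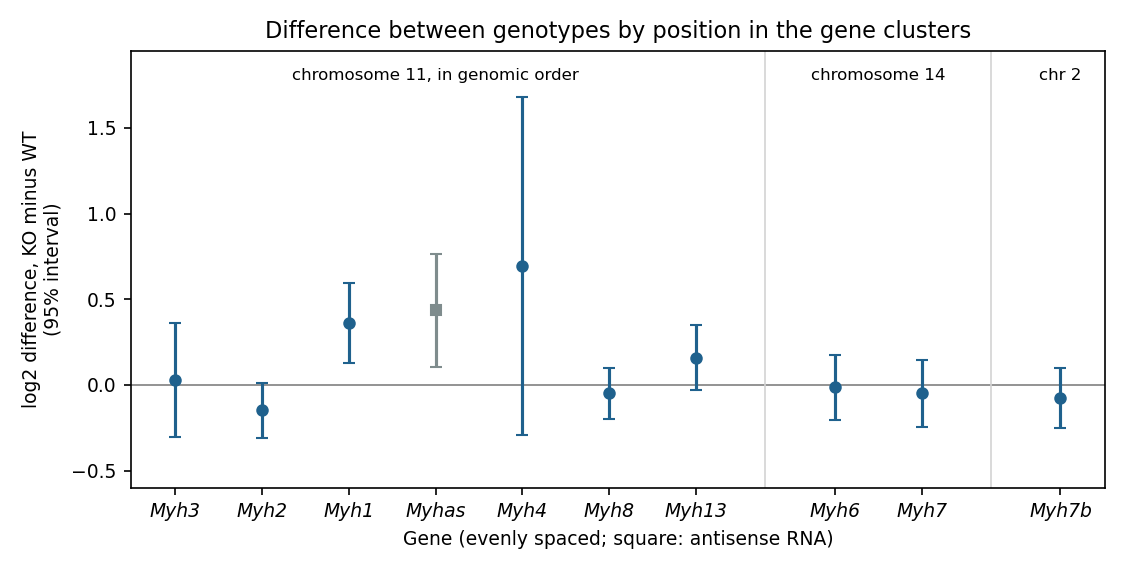
log2 difference between KO and WT (y axis, KO minus WT, with 95% intervals) of the myosin heavy chain genes in their order along chromosomes 11, 14 and 2, with the antisense gene Myhas between Myh1 and Myh4. The intervals of Myh1 and Myhas (square) lie above 0, and those of the other 8 genes include 0.

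Along chromosome 11 the order is Myh3, Myh2, Myh1, Myh4, Myh8 and Myh13, all on the plus strand within 293287 bases. Between Myh1 and Myh4, on the minus strand, the annotation places Myhas (chr11:67211256-67237573), a non-coding antisense gene that the deposited table lists as Gm12300. Its record ends 455 bases from that of Myh4. In rats such an antisense RNA is known to start between the Myh1 and Myh4 genes and to run across Myh1 and toward Myh2. Myhas had 404, 421 and 531 CPM in KO libraries, against 393, 327 and 283 CPM in WT libraries. All KO libraries were higher, and the log2 difference was 0.44 ± 0.14 (SE; 95% interval 0.11 to 0.76; unadjusted p = 0.0155, adjusted p = 0.989, edgeR). Of its 2027 exonic bases 515 (25.4%) overlap exons of Myh1, and the library kit did not mark strand, so that reads of the 2 genes in that stretch cannot be told apart. As a percentage of the Myh1 count, Myhas stood at 10, 9.94 and 11.27 in KO and at 10.02, 9.775 and 10.01 in WT libraries. It therefore followed Myh1 closely from library to library, and how much of this the shared stretch gave was not tested.

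Myh8 and Myh3 are the chains of developing and regenerating fibres. Myh8 (chr11:67277124-67308634, plus strand) had 406, 386 and 397 CPM in KO libraries, against 414, 420 and 397 CPM in WT libraries. The libraries lay close together and the groups overlapped, with a log2 difference of -0.049 ± 0.07 (SE; unadjusted p = 0.492, edgeR). Myh3 (chr11:67078300-67102291, plus strand) was the lowest of the 9, with 37.3, 49.2 and 54.7 CPM in KO libraries, against 42.1, 54.0 and 42.3 CPM in WT libraries. KO replicates 1 and 3 were the lowest and highest of all 6, and the log2 difference was 0.029 ± 0.15 (SE; 95% interval -0.30 to 0.36; unadjusted p = 0.852, edgeR). Its sign turned when any of 4 single libraries was left out, within a range of -0.093 to 0.17.

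Other markers of developing fibres were low in both groups. Chrng, the fetal subunit of the acetylcholine receptor, had 1, 2 and 0 counts in KO and 1, 0 and 0 in WT libraries. Ncam1 averaged 22.1 CPM in KO and 25.8 CPM in WT, with every KO library below every WT library, as in 5.45% of all genes tested. Its log2 difference was -0.22 (unadjusted p = 0.0417, adjusted p = 0.989, edgeR), while those of Myog and Actc1 were 0.15 and 0.125. Summed over Chrng, Ncam1, Myog and Actc1, the level was 35.6 to 39.1 CPM in KO and 37.0 to 41.7 CPM in WT. Myh8 was well above this sum, and beside the adult fast genes it amounted to 2.86, 2.76 and 2.77% of the counts of Myh1, Myh2 and Myh4 in KO and to 2.81, 3.04 and 2.92% in WT libraries (exact two-sided permutation p = 0.2). How many reads of the adult genes were counted as Myh8, through the shared sequence described further on, was not tested.

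Myh13 (chr11:67321658-67371586, plus strand) is known from extraocular and laryngeal muscle, where its chain is very fast. Its level was 84.3, 85.8 and 93.5 CPM in KO libraries, against 88.0, 77.5 and 70.5 CPM in WT libraries. WT replicate 1 lay above KO replicates 1 and 2, so the groups overlapped, and the log2 difference was 0.16 ± 0.09 (SE; 95% interval -0.03 to 0.35; unadjusted p = 0.0917, adjusted p = 0.989, edgeR). It was 0.25 without WT replicate 1 and 0.085 without WT replicate 3. In share of the family they did not overlap: 0.224, 0.231 and 0.234% in KO and 0.212, 0.193 and 0.201% in WT libraries (exact two-sided permutation p = 0.1). Set against Myh1 instead, Myh13 came to 2.09, 2.03 and 1.98% in KO and 2.25, 2.32 and 2.50% in WT libraries, this time with all KO libraries lower. Myh13 was thus higher in KO than WT beside the whole family and lower beside Myh1.

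Myh6, the cardiac alpha chain, lies 3756 bases from Myh7 on the same strand (chr14:54941921-54966927). It had 2289, 2337 and 2606 CPM in KO libraries, against 2589, 2586 and 2123 CPM in WT libraries. The order of the 6 libraries was close to that of Myh7, with WT replicate 3 lowest, and the log2 difference was -0.013 ± 0.09 (SE; 95% interval -0.20 to 0.18; unadjusted p = 0.886, edgeR). As a percentage of the Myh7 count, Myh6 stood at 11.2, 11.55 and 11.64 in KO and at 11.02, 11.22 and 11.34 in WT libraries (exact two-sided permutation p = 0.3). The ratio lay between 11.02 and 11.64% while Myh7 ranged from 18710 to 23480 CPM.

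Of 7 markers of heart muscle other than Myh6, some were at or near 0. Myl7, the atrial light chain, had 0 counts in all 6 libraries. Nppa, which encodes atrial natriuretic peptide, had 1, 0 and 0 counts in KO and 1, 1 and 2 in WT libraries, Nppb had 0 in all but WT replicate 3, which had 1, and Tnni3, cardiac troponin I, had 1, 3 and 2 in KO and 3, 0 and 2 in WT. Ryr2, the cardiac ryanodine receptor, had 2, 3 and 3 counts in KO and 4, 6 and 9 in WT. Most of the sum came from Myl4, an embryonic and atrial light chain, with 53, 60 and 57 counts in KO and 66, 51 and 74 in WT, and Tnnt2, cardiac troponin T, with 35, 23 and 40 in KO and 40, 34 and 55 in WT. Both are also known from developing skeletal muscle. Their groups overlapped, with log2 differences of -0.29 for Myl4 (unadjusted p = 0.104) and -0.52 for Tnnt2 (unadjusted p = 0.0461, adjusted p = 0.989, edgeR). The summed level of the 7 markers (1 of them at 0 in every library) was 10.8 to 12.6 CPM in KO and 12.6 to 18.1 CPM in WT, far below that of Myh6.

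Myh6 and Myh7 are also the pair most alike in coding sequence, 91.7% identical. Their longest identical coding run has 245 bases. It is shown because a read from within it cannot be assigned to either gene by its letters. The run spans an intron in both genes and lies at chr14:54948327-54948725 in Myh6 (exons 30 and 31) and at chr14:54974947-54975347 in Myh7 (exons 32 and 33), minus strand, from the GENCODE M21 transcripts (GRCm38).
Myh6 and Myh7: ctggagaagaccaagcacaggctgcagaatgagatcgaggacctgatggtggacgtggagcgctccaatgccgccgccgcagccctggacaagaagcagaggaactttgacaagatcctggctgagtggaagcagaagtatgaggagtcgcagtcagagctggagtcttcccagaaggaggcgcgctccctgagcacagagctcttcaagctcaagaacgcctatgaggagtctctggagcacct

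Where the pair is least alike, 27 of 60 positions differ, and reads there can be told apart. These windows also span an intron, at chr14:54952303-54952599 in Myh6 (exons 24 and 25) and chr14:54980378-54982191 in Myh7 (exons 26 and 27), minus strand. Capitals mark the bases that differ.
Myh6: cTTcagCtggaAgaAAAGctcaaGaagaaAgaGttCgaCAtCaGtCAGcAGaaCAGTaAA
Myh7: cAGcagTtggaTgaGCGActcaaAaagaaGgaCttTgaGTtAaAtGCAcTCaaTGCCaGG

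Of all windows of 50 bases in the Myh6 transcript, 22.6% were identical to a stretch of Myh7, and of those of 100 bases 11.4%. The share of Myh6 counts that came from Myh7 transcripts cannot be computed from gene counts, since no source used here says how reads with several matches were counted. Added to Myh7, the Myh6 counts left the log2 ratio of Myh1 plus Myh4 to Myh2 plus Myh7 at a difference of 0.48 (exact two-sided permutation p = 0.1).

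The fast genes also shared sequence. Coding identity was 91.0% between Myh1 and Myh2, 90.1% between Myh1 and Myh4 and 88.2% between Myh2 and Myh4. Their longest run common to all 3 has 140 bases and spans an intron, at chr11:67207552-67208953 in Myh1 and chr11:67180907-67181135 in Myh2 (exons 15 and 16 of each) and at chr11:67246503-67248546 in Myh4 (exons 14 and 15), plus strand, from the GENCODE M21 transcripts (GRCm38). It is shown as a stretch in which the 3 genes cannot be told apart.
Myh1, Myh2 and Myh4: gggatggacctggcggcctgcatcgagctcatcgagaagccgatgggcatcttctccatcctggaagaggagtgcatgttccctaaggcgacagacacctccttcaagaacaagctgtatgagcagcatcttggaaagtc

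In the 60 bases where they differ most, 25 positions are not the same in all 3 genes, and these are in capitals. The windows span an intron and lie at chr11:67215944-67217499 in Myh1 and chr11:67190410-67191383 in Myh2 (exons 28 and 29 of each), and at chr11:67254103-67254493 in Myh4 (exons 27 and 28), plus strand.
Myh1: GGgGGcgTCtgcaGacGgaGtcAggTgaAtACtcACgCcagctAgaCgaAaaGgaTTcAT
Myh2: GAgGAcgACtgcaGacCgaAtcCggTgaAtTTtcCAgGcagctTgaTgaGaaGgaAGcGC
Myh4: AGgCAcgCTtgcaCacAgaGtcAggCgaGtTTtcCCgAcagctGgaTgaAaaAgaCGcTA

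**Figure D4:**
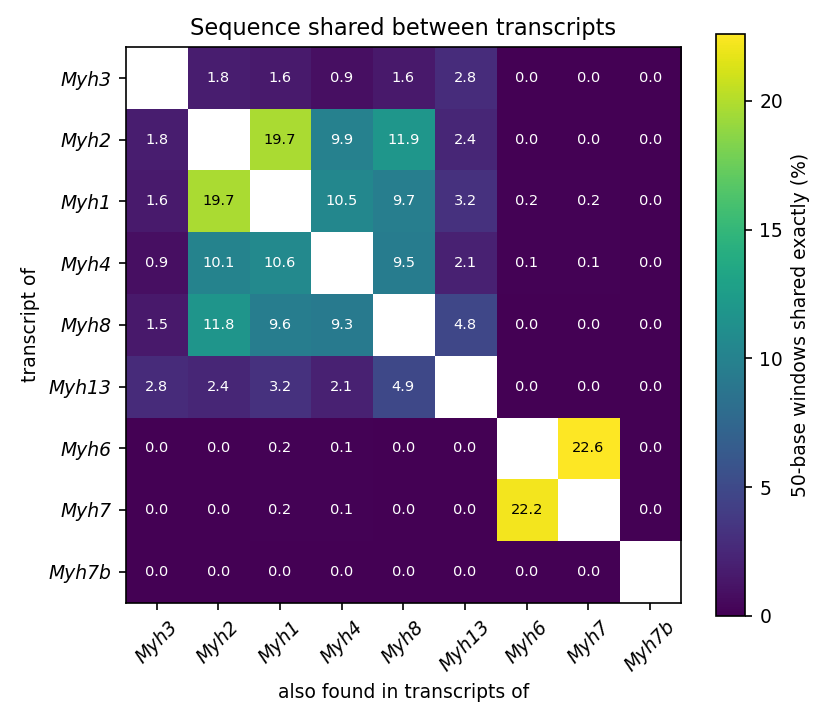
Percentage of the 50-base windows of each gene's coding transcript (rows) that occur unchanged in each other gene's transcript (columns). The pairs Myh6 with Myh7 and Myh1 with Myh2 stand out, and Myh7b shares none.

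Of its 50-base windows, Myh1 shared 26.7% with some other gene of the family, 19.7% with Myh2 and 10.5% with Myh4. The figure was 26.9% for Myh2, 18.9% for Myh4, 21.4% for Myh8, 22.2% for Myh7, 8.45% for Myh13 and 4.81% for Myh3. With windows of 100 bases it was 9.73% for Myh1, 9.17% for Myh2, 3.85% for Myh4, 6.61% for Myh8 and 3.45% for Myh13. Reads from shared stretches, if divided among genes, would mix the values of neighbours, and the size of this was not tested. Myh1 and Myh2 are the fast pair with most in common.

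Myh7b lies apart, on chromosome 2, plus strand (chr2:155611212-155634307), and shared no 50-base window with any of the others. In coding sequence it was 67.9 to 71.7% identical to them. It had 118, 120 and 127 CPM in KO libraries, against 143, 122 and 118 CPM in WT libraries. WT replicate 1 was highest and the groups overlapped, with a log2 difference of -0.074 ± 0.08 (SE; unadjusted p = 0.387, edgeR). The precursor rows of the microRNAs that the slow and cardiac genes carry in their introns held few counts, and such libraries measure no mature microRNA. Mir208b, of Myh7, had 5, 9 and 9 counts in KO and 3, 3 and 8 in WT libraries, Mir499, of Myh7b, had 2, 0 and 1 in KO and 0, 1 and 0 in WT, and Mir208a, of Myh6, had none.

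Genes that work with the fast chains were then counted, from a list of 14 that was partly drawn up with earlier results of these data known. Their members include light chains, fast troponins, the calcium buffer parvalbumin and the calcium pump of fast fibres. Of the 14 genes, 12 had a higher and 2 a lower estimate in KO, at a median of 0.10 on the log2 scale, beside 49.3% higher and a median of -0.0024 over all genes tested. Both lower estimates turned above 0 with RLE, upper-quartile or no scaling, giving 14 of 14. None passed the adjusted threshold, and in 4 (Actn3, Pvalb, Myoz1 and Tnnc2) every KO library lay above every WT library, against 4.96% of all genes. Actn3, which encodes the fast-fibre Z-disc protein alpha-actinin-3, had 126, 129 and 144 CPM in KO libraries, against 69.4, 36.5 and 47.5 CPM in WT libraries. These groups stood well apart, and the log2 difference was 1.38. That of Pvalb was 0.87, that of Myoz1, a Z-disc protein that binds calcineurin, was 0.31, and that of Mybpc2, the fast myosin-binding protein C, was 0.68. Pvalb, Actn3 and Mybpc2, like Myh4, are known from type IIB fibres.

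**Figure D5:**
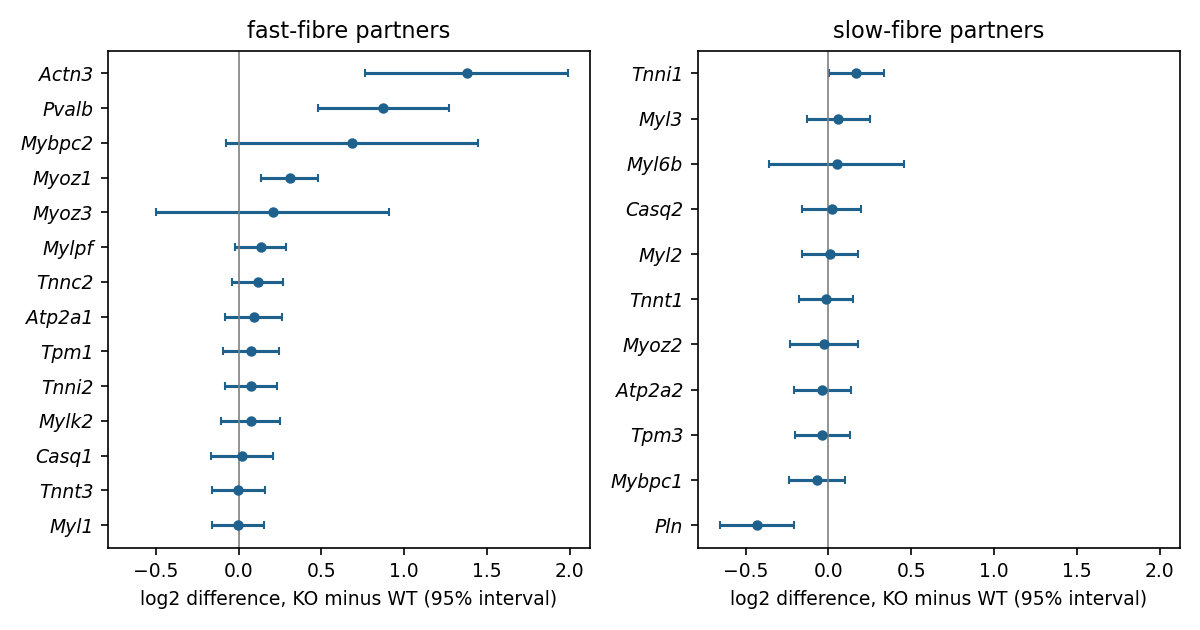
log2 difference between KO and WT (x axis, KO minus WT, with 95% intervals) of the tested fast-fibre and slow-fibre partner genes. Of the fast-fibre genes 12 of 14 lie above 0 (14 of 14 with RLE, upper-quartile or no scaling), and of the slow-fibre genes 5 of 11 (6 of 11 without scaling).

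The slow-fibre partners did not share this direction. Of 11 tested genes of 12, 5 had a higher and 6 a lower estimate in KO, with a median of -0.014 (0.0035 without scaling) and none past the adjusted threshold. Tnnc1, the slow troponin C gene, was not tested, being at or near 0. Pln, which encodes phospholamban, the inhibitor of the slow calcium pump, averaged 38.0 ± 5.02 CPM in KO and 51.2 ± 5.17 CPM in WT (SD, n = 3 each). Its log2 difference was -0.43 (unadjusted p = 0.000904, adjusted p = 0.989, edgeR). It was the 1 gene of the 11 in which every KO library lay below every WT library, against 5.45% of all genes tested. Slow troponin I, Tnni1, had a log2 difference of 0.17, and slow myosin-binding protein C, Mybpc1, one of -0.07. The difference between the fast and the slow list was not tested.

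Myosin needs helpers to fold and to assemble, and other proteins to break it down. Of 14 tested genes of 15 in this group, 6 had a higher and 8 a lower estimate in KO, with a median of -0.029 and none past the adjusted threshold. In 1 (Trim54, log2 difference 0.086) every KO library lay above every WT library, against 4.96% of all genes tested. In 1 (Myom2) every KO library lay below every WT library, against 5.45% of all genes tested. Myom2, an M-band protein that ties thick filaments together, averaged 272 ± 57.0 CPM in KO and 376 ± 33.5 CPM in WT (SD, n = 3 each). Its log2 difference was -0.46 (unadjusted p = 0.0139, adjusted p = 0.989, edgeR). Trim63, the ubiquitin ligase MuRF1 that marks myosin heavy chain for breakdown, had a log2 difference of -0.30, and Ttn, the titin ruler along which the filament is built, one of -0.17.

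Among regulators of the myosin heavy chain genes, 27 of 28 genes found in the table were tested. Of these, 11 had a higher and 16 a lower estimate in KO, with a median of -0.030 (13 higher and 14 lower with upper-quartile or no scaling) and none past the adjusted threshold. In 1 every KO library lay above every WT library (Myf6), and in 3 every KO library lay below (Ppargc1a, Ppargc1b and Foxj3), beside 4.96% and 5.45% of all genes tested. Myf6, the myogenic factor MRF4, averaged 29.5 ± 2.00 CPM in KO and 24.2 ± 2.16 CPM in WT (SD, n = 3 each), a log2 difference of 0.29 (unadjusted p = 0.0136). Ppargc1a, which encodes PGC-1 alpha, a coactivator known to favour slow and oxidative fibres, averaged 52.3 ± 17.2 CPM in KO and 77.3 ± 1.64 CPM in WT (SD, n = 3 each), with a log2 difference of -0.56 (unadjusted p = 0.0885). Its relative Ppargc1b, PGC-1 beta, known from type IIX fibres of transgenic mice, had a log2 difference of -0.48 (unadjusted p = 0.0194), in the direction opposite to that of Myh1.

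Last, the genes whose pattern over the 6 libraries was most like that of each chain were sought among 9741 genes, by the root mean square of the difference between log2 deviations from the mean. For Myh1 these were Pla2g6 (0.0527), Rexo4 (0.067) and Park2 (0.0674). The chain itself had an SD of 0.264 over the 6 libraries. As the nearest of 9741 genes, these were bound to lie close to it, and the nearest, Pla2g6, had only 4.82 to 8.79 CPM. For Myh4, with an SD of 0.585, they were Mybpc2 (0.181), Ssbp4 (0.198) and Aasdh (0.263). Mybpc2 had 80.1, 103 and 117 CPM in KO and 84.0, 44.6 and 57.8 CPM in WT libraries, with WT replicate 1 the highest and WT replicate 2 the lowest of its group, as for Myh4. For Myh2 the nearest were Pi4ka (0.0139), Bmpr1a (0.0166) and Herc1 (0.0294), and for Myh7 Rrm1 (0.0269), Vti1a (0.0344) and Tial1 (0.038). These distances are descriptions over 6 libraries, and no test was made of them.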

How the data were processed

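RNA was measured by sequencing in 3 KO and 3 WT libraries. Trizol was used to extract the RNA and the Illumina TruSeq kit, which does not mark strand, to build libraries, per the labels' protocols. The submitters' processing notes name TopHat 1.3.3, edgeR and mm10. No source used here names the read counter or the annotation, or says how reads with several matches were counted. The table deposited by the authors gives raw counts for each Ensembl ID, with the authors' deposited log2 fold change and the p-value and adjusted p-value deposited for each gene. No source used here describes the test behind these.

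Of 37506 rows, 29 repeated an Ensembl ID and were merged. Replicates differed by more than sampling noise (chi-square per gene of 3.46 to 9.57), and each library was counted once. After filterByExpr, TMM scaling gave factors of 0.968 to 1.037, and the robust two-sided quasi-likelihood test of edgeR 4.0.16 in R 4.3.3 was run on genotype over all 13848 genes, with Benjamini-Hochberg adjustment. CPM uses the TMM-scaled totals, and exonic lengths and coordinates are from GENCODE M21. Shares and ratios were compared by exact permutation tests over libraries. DESeq2 1.42.0 and limma 3.58.1 were alternatives, with other scalings and filters, a replicate block and each library left out; adding Myh6 to Myh7 and recounting the lists under these settings were chosen after seeing the data. Coding sequences were aligned with mafft 7.526. The test was tested on simulated data.

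The members and lists were chosen with earlier results of these data known. All 9 members were named, from each list the 3 genes with the smallest unadjusted p plus partners named in the text, and for each member the 3 genes most alike with a mean of at least 5 CPM, of which those of 4 members are printed. The lists also held 5 other class II myosin heavy chains, 4 of them non-muscle or smooth muscle chains. Purb was not found in the table. The ID listed for Tead1 was not in GENCODE M21 and had 0 counts, so that the level of Tead1 is not known here. Tnnc2, Tnni2, Tnnt3, Trim54 and Foxj3 fall outside this rule and were named after their values were seen. Gm12295, listed as a non-coding RNA of the locus, lies 1712501 bases from Myh3 and is not described further.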

Additional observations from a re-analysis of the deposited data

How the results depend on the processing

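In edgeR the call of Myh1 depended on the filter: without one beyond 1 read its log2 difference was 0.37 and its adjusted p 0.00132. DESeq2, also run without the main filter, gave Myh1 an adjusted p of 0.999. The cause was not tested. The number of genes called was 19 there (14 higher and 5 lower in KO), 1 with limma voom and 3 with DESeq2, and 0 to 3 when each library was left out (3 without WT replicate 1). Without scaling the log2 difference of Myh6 turned to 0.0077; the other scalings kept the sign of all 9 chains. No scaling moved the median over all genes by more than 0.0156. With a library left out, log2 differences ranged from 0.25 to 0.49 for Myh1, 0.45 to 1.06 for Myh4, 0.085 to 0.25 for Myh13, -0.093 to 0.17 for Myh3, -0.10 to 0.034 for Myh6, -0.15 to 0.0097 for Myh7 and -0.13 to 0.013 for Myh7b, so that the last 4 changed sign; Myh7 and Myh7b did so without WT replicate 1 alone. Differences in share ranged from -0.00496 to 0.0155 percentage points for Myh3, -0.0615 to 0.150 for Myh6 and -0.0527 to 0.0152 for Myh8. The labels do not say that replicate numbers pair the libraries. Deviations of same-numbered KO and WT libraries correlated at -0.015, 0.159 and 0.038. KO replicate 1 correlated best with WT replicate 3, and KO replicates 2 and 3 with the WT library of their own number. These correlations cannot decide on pairing, since deviations from a mean of 3 libraries depend on each other. With the replicate block no gene was called (0), and Myh1 had a log2 difference of 0.37 with an adjusted p of 0.908. With 3 libraries per group no exact test of a share or ratio can fall below 0.1, and with 2 in one group below 0.2.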

Other observations

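Of 5 other class II myosin heavy chains, 4 were tested, the smooth muscle chain Myh11 and the non-muscle chains Myh9, Myh10 and Myh14. The fifth, Myh15, a slow-tonic sarcomeric chain, had 2 to 9 counts in KO and 3 to 7 in WT libraries and was not tested. All 4 had a lower estimate in KO, at a median of -0.058 on the log2 scale. None passed the adjusted threshold, and without WT replicate 1 there were 2 higher and 2 lower. Myh11 had 30.8, 46.3 and 30.5 CPM in KO libraries, against 49.7, 46.2 and 42.6 CPM in WT libraries. KO replicate 2 stood with the WT libraries and the other KO libraries lay lower, so the groups overlapped (log2 difference -0.36, unadjusted p = 0.0442, edgeR). The summed level of 5 smooth muscle markers including Myh11 was 98.7 to 127 CPM in KO and 124 to 129 CPM in WT, and its part in the value of Myh11 was not tested. The non-muscle chains Myh14, Myh9 and Myh10 had log2 differences of -0.06, -0.05 and -0.02.

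Egr3, a marker of muscle spindles, whose fibres are known to make Myh6 and other unusual chains, had 0, 0 and 1 counts in KO and 0 in each WT library. The fibres of the spindle were otherwise not measured, and their part in the Myh6 counts was not tested.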
